A study of Mus musculus with 3 samples.

Results

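The genes examined here encode the subunits of the mitochondrial respiratory chain and ATP synthase that are read from nuclear DNA. They were found by symbol among protein-coding mouse genes, as the families Ndufa, Ndufb, Ndufc, Ndufs and Ndufv of complex I, Sdha to Sdhd of complex II, Uqcr and Cyc1 of complex III, Cox4i to Cox8 of complex IV and Atp5 of complex V. The rule gave 89 genes, and 84 of them were listed in at least 1 library, of 16742 genes listed in all. Complex I held 38 of the 84 genes, complex II 4, complex III 9, complex IV 16 and complex V 17. Cox7b2, Cox8c, Ndufb1, Ndufb4b and Ndufb4c were not listed, and 19 pseudogenes with a matching symbol were left out. The subunits that mitochondrial DNA encodes were not analysed here.

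In the respiratory chain, complex I (NADH dehydrogenase) and complex II (succinate dehydrogenase) feed electrons from nutrients into coenzyme Q. Complex III passes them to cytochrome c and complex IV to oxygen. Complexes I, III and IV pump protons across the inner mitochondrial membrane, and complex V (ATP synthase) uses their return to make ATP. Apart from complex II, the complexes join catalytic subunits with accessory ones and also contain subunits from mitochondrial DNA. Blood cells differ in their reliance on this system, and granulocytes are known to draw mostly on glycolysis.

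RNA-seq was available from 3 libraries, 1 per condition, each pooled from 3 C57BL/6 mice given as 6 to 8 weeks old. The control library came from lin- bone marrow cells of wild-type mice, obtained by lineage depletion. The TR1 and TR9 libraries came from sorted GFP+ bone marrow cells of mice with leukemia driven by TBLR1-RARα (TR), a fusion of TBLR1 to the retinoic acid receptor α, after serial transplantation to the third generation. The fusion was carried by an MSCV retrovirus with GFP, so the GFP gate held transduced donor cells, and TR1 and TR9 descend from separate primary mice. Leukemia and the way the cells were isolated cannot be told apart in this design, and no condition had a replicate library. Both comparisons with control share the control library. Values in a row are given in the order control, TR1 and TR9, and pairs of log2 ratios in the order TR1 and TR9 against control.

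Expected counts, the read numbers that RSEM assigned to each gene, summed to between 5129662 and 5571409 per library. The libraries differed widely in lineage genes. By the thresholds for a call given below, 13.0% of all genes tested were called lower and 8.09% higher in TR1. In TR9 the shares were 10.8% and 9.37%. Of 20 erythroid markers, 18 were listed and all 18 were called lower in both TR libraries, with summed FPKM of 3509 in control, 45.4 for TR1 and 47.9 for TR9. Alas2, Tspo2 and Hba-a2 were at 0 in both. All 12 megakaryocyte markers were also called lower in both, and of the late granulocyte markers 10 of 10 were called higher in TR1 and 8 of 10 in TR9. The 12 megakaryocyte markers summed to 1143, 4.49 and 3.34 FPKM, with Pf4, Gp6 and Treml1 at 0 in both TR libraries. The 10 late granulocyte markers summed to 103.7, 23230 and 9040 FPKM, and the 6 promyelocyte markers to 4325, 21310 and 23760. Of the 6 promyelocyte markers, 5 were called higher and 1 (Kit) lower in TR1, and 4 higher and 0 lower in TR9. The 10 stem and multipotent progenitor markers gave 253.2, 104.3 and 165.3 FPKM, with Slamf1 at 0 in both TR libraries. Of these 10, 7 were called lower and 2 higher in TR1, and 5 lower and 1 higher in TR9. Ly6a, called higher in both, was at 9.49, 26.9 and 87.6 FPKM. The lymphoid markers, 10 of 11 listed, gave 110.7, 196.7 and 158.2 FPKM, most of it from Nkg7 in each library. The 9 others summed to 15.6, 2.45 and 3.43 FPKM, with Cd79a, Cd79b and Ms4a1 at 0 in both TR libraries. The part of these cell types in the values that follow was not tested. In such bulk RNA, fewer cells of a type and less RNA per cell cannot be told apart.

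Respiratory chain subunit genes took up a smaller share of the reads in both TR libraries than in control. They held 48225 of the expected counts in control, or 0.879% (95% exact binomial interval 0.87 to 0.89). In TR1 they held 34136, or 0.613% (0.61 to 0.62), and in TR9 36027, or 0.702% (0.70 to 0.71). The 3 intervals do not overlap. They cover counting error only, as do all intervals given here. Of the summed FPKM, a level relative to transcript length and to the reads of the library, the genes made up 2.12% in control, 1.42% for TR1 and 1.73% for TR9. Without the 155 genes that were among the 100 most abundant of any library, the shares of counts were 0.806%, 0.672% and 0.724%, in the same order. The 155 include 2 of the subunit genes, Atp5a1 and Atp5b, so these shares rest on a smaller set of subunit genes.

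Single genes were compared by the log2 ratio of FPKM, and a gene was called when the ratio was at least 1 in size and a Poisson test of the counts gave a false discovery rate of at most 0.001 over all genes tested. Such a test compares the reads of 2 libraries, not the conditions. In TR1, 8 of 82 subunit genes (9.76%) were called lower than control and 0 higher, beside 13.0% and 8.09% of all 16282 genes tested. In TR9, 5 of 84 (5.95%) were called lower and 1 higher, beside 10.8% and 9.37% of 16303 genes. The shares called lower were thus not above the background. Ndufab1, Ndufs1, Ndufs3 and Sdhb were called lower in both TR libraries. Sdha, Sdhc, Uqcr11 and Uqcrc2 were called lower in TR1, and Atp5g3 in TR9, where Cox6b2 was called higher. With the edgeR exact test and an assumed biological coefficient of variation of 0.2, 1 gene was called lower in TR1 and 0 in either direction in TR9. The share of all genes called by that test is not given here.

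Most subunit genes lay below control by less than that threshold. The log2 ratio was below 0 in 58 of 82 genes (70.7%) in TR1, where 61.6% of all genes were, with a median of -0.42 against -0.29 for all genes tested. In TR9 it was below 0 in 59 of 84 (70.2%), where 54.4% of all genes were, with a median of -0.31 against -0.12. With TMM, the scaling factor of edgeR, 57.3% of the subunit genes were below 0 in TR1, beside 51.6% of all genes, and 61.9% in TR9, beside 50.4%. The 95% counting interval of the ratio lay wholly below 0 for 47 genes and above 0 for 9 in TR1, and for 43 and 14 in TR9. The 14 include Cox7a1, with 0 counts in control and 6 in TR9. The shares of all genes with such intervals are not given here, so these counts have no background beside them. With a threshold of 1.5-fold, 29 genes (35.4%) were lower and 5 higher in TR1, beside 21.0% and 11.0% of all genes. In TR9, 15 (17.9%) were lower and 5 (5.95%) higher, beside 17.4% and 12.8%. Among genes with a mean FPKM of at least 10, closer to these subunits in abundance, 27.0% were lower by 1.5-fold in TR1 and 23.7% in TR9.

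**Figure D1:**
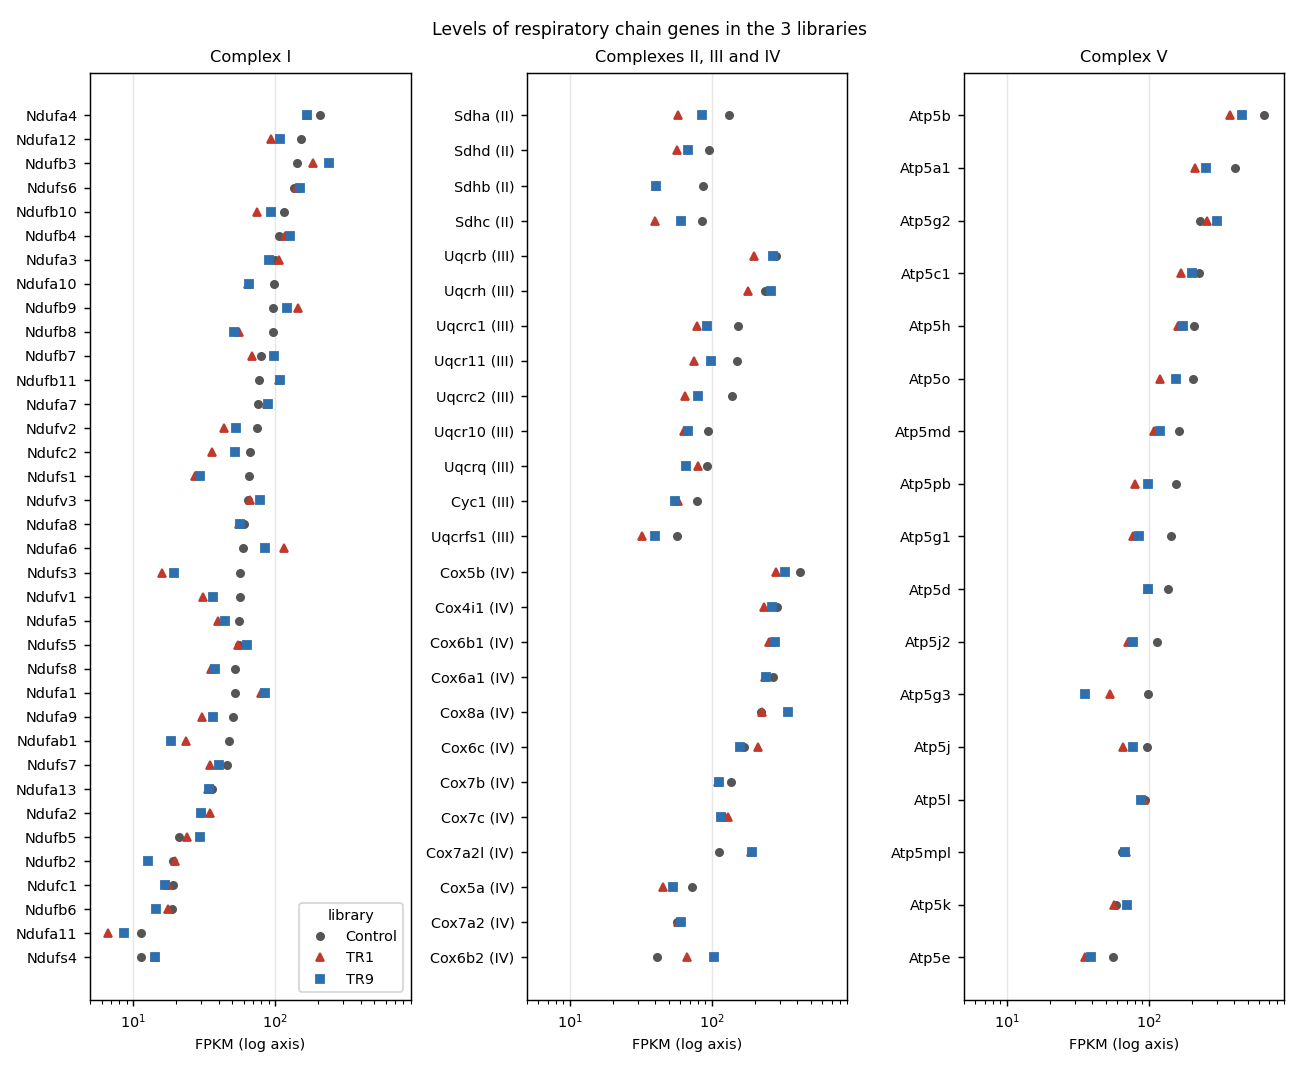
Levels of 78 of the 79 subunit genes with at least 20 expected counts in a library, in the control, TR1 and TR9 libraries, 1 point per library, in FPKM on a log axis. Atp5b, at 643.8 FPKM in control, is the most abundant. The control point lies to the right of both TR points for most genes of complexes II, III and V, while complex I and complex IV are mixed.

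Scaling set how many calls were made. The deposited FPKM divide by the library total, and the TMM, median of ratios and upper quartile factors moved all TR1 ratios up by 0.21 to 0.25 on the log2 scale and all TR9 ratios up by 0.10 to 0.11. With TMM, 2 genes (Ndufs1 and Ndufs3) were called lower and 2 (Ndufa6 and Cox7a2l) higher in TR1, and 4 lower and 1 higher in TR9. The shares of all genes called with TMM at a log2 ratio of 1 are not given here. With TMM and the 1.5-fold threshold, a setting chosen after seeing the data, 15 subunit genes were lower and 7 higher in TR1 (18.3% and 8.54%, beside 14.3% and 14.6% of all genes), and 9 lower and 7 higher in TR9 (10.7% and 8.33%, beside 14.8% and 14.6%). Such a factor moves all genes of a library by the same amount, so neither differences between subunit genes nor the gap between their median and that of all genes (-0.13 in TR1 and -0.20 in TR9) can depend on it. The treatment of low values can move that gap, which was -0.26 and -0.24 with a pseudocount of 1 FPKM, and -0.17 and -0.22 among genes with a mean FPKM of at least 1.

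**Figure D2:**
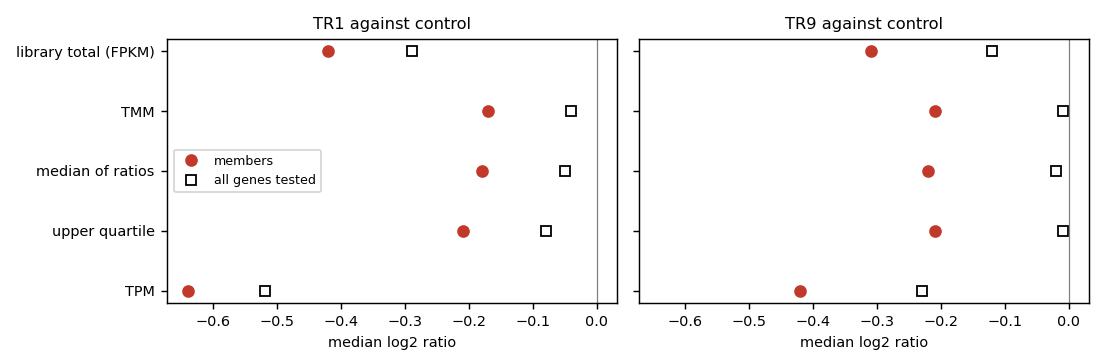
Median log2 ratio against control of the subunit genes (circles) and of all genes tested (squares) under 5 scalings, for TR1 and TR9. The position of the subunit genes moves from -0.64 to -0.17 in TR1 and from -0.42 to -0.21 in TR9, and the distance between the symbols is the same in every line of a panel because a scaling shifts all genes alike.

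The complexes ranked differently. The median log2 ratio in TR1 was -1.10 over the 4 genes of complex II, -0.58 over 17 of complex V, -0.56 over 9 of complex III, -0.11 over 37 of complex I and 0.01 over 15 of complex IV. In TR9 the medians were -0.57, -0.44, -0.50, -0.19 and -0.07. Without the 5 genes of 10 counts or fewer, left out after seeing the data, complex IV was at -0.06 in TR1 and -0.07 in TR9 (12 genes) and complex I at -0.21 in TR9. Complexes II, III and V kept a median below 0 under all 5 scalings in both comparisons. That of complex IV was above 0 under the 3 factors (0.22 to 0.26 in TR1 and 0.03 to 0.04 in TR9). Over its 12 genes of more than 10 counts it was 0.15 to 0.19 in TR1 and 0.03 to 0.04 in TR9. The median of complex I turned to 0.11 to 0.14 in TR1 but not in TR9. As a share of the summed FPKM of all subunit genes, complex II went from 4.17% in control to 2.59% in TR1 and 3.03% in TR9, and complex V from 32.3% to 28.0% and 28.6%. Complex III held 13.4%, 11.1% and 12.2%. Complex IV went from 22.8% to 27.2% and 26.8%, and complex I from 27.2% to 31.1% and 29.4%. These shares need no scaling between libraries, and no replicate gives their spread.

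**Figure D3:**
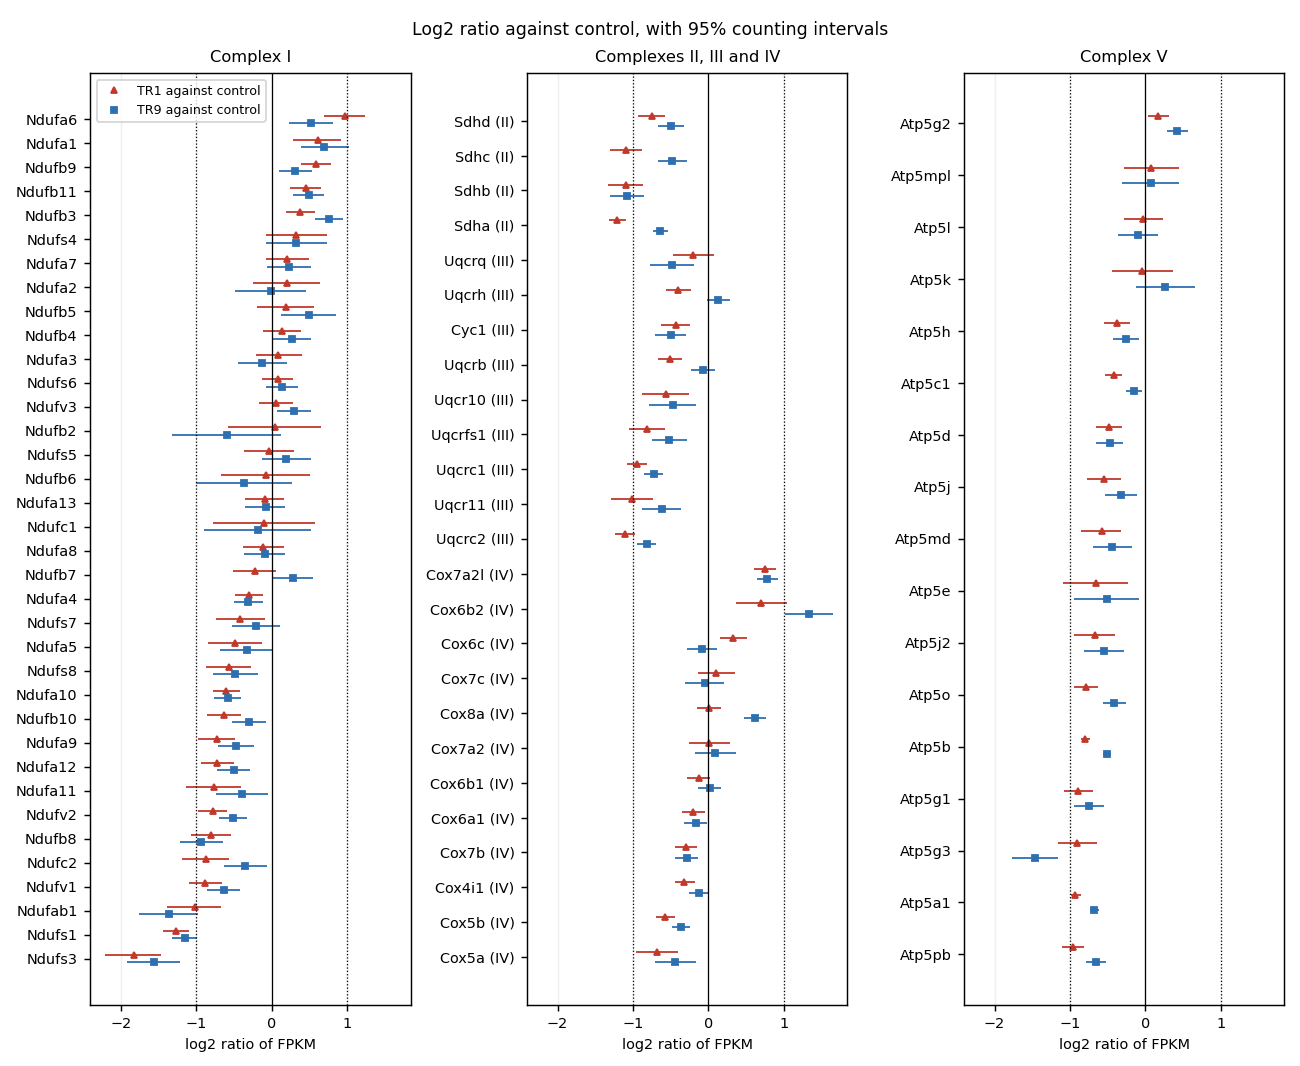
Log2 ratio of FPKM against control for the same 78 subunit genes, TR1 as triangles and TR9 as squares, with 95% exact counting intervals as bars and dotted lines at -1 and 1. Ndufs3 lies farthest to the left and Cox6b2 in TR9 farthest to the right, and 3 of the 4 genes of complex II lie beyond -1 in TR1.

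In complex I, the 7 core subunits, which carry its flavin and iron-sulfur clusters or form the path to coenzyme Q, all lay below control in both TR libraries. Their median log2 ratio was -0.78 for TR1 and -0.62 for TR9, beside -0.05 and -0.08 for the accessory subunits (30 tested in TR1 and 31 in TR9). Under the 3 factors above, the core medians were -0.57 to -0.53 in TR1 and -0.53 to -0.52 in TR9, with all 7 genes still below 0, while the accessory medians were above 0 (0.16 to 0.20 and 0.01 to 0.02). The core genes gave 16.8% of the summed FPKM of complex I in control, 10.3% for TR1 and 11.0% for TR9. Lower by at least 1.5-fold were 5 of the 7 core genes (71.4%) in TR1 and 4 (57.1%) in TR9, beside 26.7% and 6.45% of the accessory genes. Of all genes, 21.0% and 17.4% were. With TMM, 3 (42.9%) and 2 (28.6%) of the core genes were, beside 14.3% and 14.8% of all genes.

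Ndufs3, a core subunit of the arm that reaches into the matrix, had the lowest ratio in both comparisons among the 78 subunit genes with a mean FPKM of at least 10. It was counted 287 times in control, 82 for TR1 and 91 for TR9, at 56.9, 16.0 and 19.3 FPKM. The 2 TR values lie close together and far below control, 3.56-fold lower in TR1 (log2 ratio -1.83, 95% counting interval -2.21 to -1.47) and 2.95-fold lower in TR9 (-1.56, -1.92 to -1.22). It was called lower under each of the 5 scalings in both comparisons. In the annotation, 85 bases of its exons overlap Kbtbd4 on the opposite strand, whose counts were 161, 48 and 57, and no source used here says whether reads were assigned by strand. Its promoter, the 250 bases before the RefSeq start at chr2:90904722-90904971 (GRCm38.p6, minus strand), holds the GABPA motif CCGGAAG, in capitals, 27 bases before the start.
Ndufs3: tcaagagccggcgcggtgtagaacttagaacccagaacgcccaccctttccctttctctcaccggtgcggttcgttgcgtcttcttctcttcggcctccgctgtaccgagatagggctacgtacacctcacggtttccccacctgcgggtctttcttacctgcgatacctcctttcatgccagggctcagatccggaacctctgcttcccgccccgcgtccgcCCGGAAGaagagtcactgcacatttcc

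Ndufs1, the largest core subunit, which holds several iron-sulfur clusters, was counted 990, 421 and 423 times and was 2.41-fold lower in TR1 (-1.27, -1.44 to -1.10) and 2.22-fold lower in TR9 (-1.15, -1.32 to -0.99). It shares 320 exon bases with the antisense gene Ino80dos, whose counts went the other way (85, 155 and 150). Ndufab1 is the mitochondrial acyl carrier protein, which also serves fatty acid synthesis in the organelle. It was counted 203, 102 and 74 times, with a ratio of -1.02 in TR1 (-1.38 to -0.67) and -1.36 in TR9 (-1.76 to -0.97). With TMM it was called lower in TR9 but not in TR1 (-0.77). Ndufv1, Ndufv2, Ndufs7 and Ndufs8, also core genes, were not called. Ndufv1 and Ndufv2, of the module that oxidizes NADH, had -0.88 and -0.63, and -0.78 and -0.51. Ndufs8 had -0.57 and -0.48, and Ndufs7, an iron-sulfur subunit next to the Q site, -0.42 and -0.21, with a TR9 interval of -0.52 to 0.11 that includes 0.

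Accessory subunits of complex I went both ways. Ndufa6, a small subunit of the LYR family, was the highest of complex I by the mean of both ratios. It was counted 174, 346 and 233 times, at 59.5, 116.3 and 85.2 FPKM. The TR1 value is the highest of the 3, with a ratio of 0.97 (0.70 to 1.24), just under the threshold, and TR9 had 0.52 (0.23 to 0.81). With TMM the TR1 ratio was 1.22, and the gene was called higher. Ndufa1, Ndufb3, Ndufb9 and Ndufb11, named after their values were seen, also had both intervals above 0, with ratios between 0.31 and 0.76. At the other end, Ndufb8, chosen likewise, had -0.80 and -0.93. Ndufa4 and Ndufa12 were the most abundant genes of complex I in control. Ndufa4, whose product is now placed in complex IV, was at 207.2, 168.8 and 167.6 FPKM (-0.30 and -0.31), and Ndufa12 at 152.6, 92.9 and 108.0 (-0.72 and -0.50). Ndufa4l2, a paralog known from hypoxic cells, had 1 count in TR9 and 0 elsewhere, under the floor of 3 counts.

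For 1 gene the FPKM and the counts part. Ndufv3 was counted 279, 346 and 433 times, but its length, which RSEM averages over transcripts, was estimated at 814, 947 and 1087 bases, so its FPKM of 64.3, 66.9 and 78.9 give ratios of 0.06 and 0.30, while counts relative to the library total give 0.29 and 0.73. Its length estimate was the only one among the subunit genes that differed by over 5% between libraries. Transcripts were not measured separately here.

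Complex II has 4 subunits, all nuclear, which form the enzyme that also runs a step of the TCA cycle. All 4 genes lay below control in both TR libraries, with intervals wholly below 0. Sdha, the flavin subunit, was counted 2091, 922 and 1255 times, at 132.8, 57.5 and 85.2 FPKM. TR9 lies between TR1 and control. The gene was 2.31-fold lower in TR1 (-1.21, -1.32 to -1.09) and 1.56-fold lower in TR9 (-0.64, -0.74 to -0.54). Sdhc, a membrane anchor, was counted 539, 257 and 362 times and had the same order, at -1.09 (-1.31 to -0.88) and -0.48 (-0.67 to -0.28). Sdhd, the other anchor, was counted 667, 404 and 442 times, at -0.75 and -0.50. With TMM none of the 4 was called in TR1, at ratios of -0.96 for Sdha, -0.85 for Sdhb, -0.85 for Sdhc and -0.50 for Sdhd. Lower by 1.5-fold with TMM were 3 of 4 (75.0%) in TR1 and 1 of 4 (25.0%) in TR9. Of all genes, 14.3% and 14.8% were.

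Sdhb, the iron-sulfur subunit of complex II, did not share that order. It was counted 505, 240 and 224 times, at 85.8, 40.1 and 40.7 FPKM, with both TR values alike. The ratio was -1.10 in TR1 (-1.33 to -0.87) and -1.08 in TR9 (-1.31 to -0.85). Its TR9 value with TMM was -0.97 and was not called. The wider search described below also found the GABPA motif for Sdhb, outside the bases printed here. Its promoter at chr4:140961021-140961270 (GRCm38.p6, plus strand) is shown because it holds the NRF1 motif, read here as GCATGCGC on the strand printed and in capitals, 54 bases before the start.
Sdhb: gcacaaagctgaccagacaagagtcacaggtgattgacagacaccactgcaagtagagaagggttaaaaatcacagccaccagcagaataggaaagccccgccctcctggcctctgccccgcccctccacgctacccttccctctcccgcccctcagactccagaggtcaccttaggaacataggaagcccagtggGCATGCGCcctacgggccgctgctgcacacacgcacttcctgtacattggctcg

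In complex III, Uqcrc2, one of the core proteins, was counted 1436, 677 and 763 times and was called lower in TR1, at -1.11 (-1.24 to -0.98), with -0.82 (-0.95 to -0.69) in TR9. Uqcr11, a small subunit, was counted 335, 169 and 204 times, at -1.01 (-1.29 to -0.74) and -0.62 (-0.88 to -0.36). Neither was called in TR1 with TMM (-0.86 and -0.76). Uqcrb and Uqcrh, the most abundant genes of the complex in control at 282.5 and 237.5 FPKM, stood nearer to control. Uqcrb was at 198.3 in TR1 and 268.2 in TR9 (-0.51 and -0.07), and Uqcrh, the hinge protein, at 180.4 and 260.0 (-0.40 and 0.13). Both TR9 intervals include 0. All 9 genes were below 0 in TR1 and 8 of 9 in TR9.

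In complex IV, the terminal oxidase, no gene was called lower in either comparison, and Cox5a, which had the lowest mean ratio of its well-counted genes, was at -0.68 (-0.96 to -0.40) and -0.44 (-0.71 to -0.16). The most abundant genes in control were Cox5b, at 417.7, 282.1 and 325.8 FPKM (-0.57 and -0.36), and Cox4i1, which encodes the common form of subunit 4, at 288.2, 231.7 and 263.9 (-0.32 and -0.13). Against these, a pair of genes stood above control in both TR libraries. Cox7a2l is not a subunit in the strict sense. Its product has been described as joining complexes III and IV into supercomplexes. Whether it does so in the mouse strain used here was not tested, and RNA levels cannot show it. The gene was counted 663, 1136 and 1064 times, at 111.5, 188.0 and 191.5 FPKM. The ratios were 0.75 (0.61 to 0.89) and 0.78 (0.64 to 0.92), under the threshold, and with TMM it was called in TR1.

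Cox6b2 encodes the form of subunit 6b known from testis and was the only subunit gene called higher. It was counted 116 times in control, 195 for TR1 and 274 for TR9, at 41.2, 66.9 and 103.5 FPKM. The values differ in all 3 libraries, with ratios of 0.70 (0.36 to 1.04) in TR1 and 1.33 (1.01 to 1.65) in TR9. Of the counts of both 6b genes, Cox6b2 held 13.9% in control (11.6 to 16.4), 22.6% in TR1 (19.9 to 25.6) and 28.7% in TR9 (25.8 to 31.7), while Cox6b1, the common form, was at 274.8, 250.4 and 278.1 FPKM. The other tissue-restricted forms stayed near the floor. Cox4i2 had 4, 2 and 2 counts, Cox6a2 4, 5 and 1, and Cox8b 0, 0 and 1. Cox7a1, a form of heart and skeletal muscle, had 0 counts in control, 1 for TR1 and 6 for TR9, and was not called.

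In complex V, Atp5b and Atp5a1 of the catalytic head were among the most abundant of all subunit genes. Atp5b, the β subunit, which carries the catalytic sites, was counted 6620, 3870 and 4362 times, at 643.8, 369.8 and 453.3 FPKM. It was 1.74-fold lower in TR1 (-0.80, -0.86 to -0.74) and 1.42-fold lower in TR9 (-0.51, -0.56 to -0.45). Atp5a1, the α subunit, was counted 5405, 2889 and 3159 times, at 402.5, 211.4 and 251.4 FPKM (-0.93 and -0.68). All 5 genes of the F1 head were below control in both comparisons, with medians of -0.65 and -0.51, beside -0.57 and -0.37 for the 12 other genes of the complex. The head gave 47.3% of the summed FPKM of complex V in control, 42.2% for TR1 and 43.6% for TR9.

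The c subunit, which forms the rotating ring in the membrane, is made as the same mature protein from 3 genes, and their mix differed between the libraries. Atp5g2 was counted 775, 889 and 969 times, Atp5g1 610, 336 and 340 times, and Atp5g3 353, 193 and 120 times. Atp5g2 was above control in both TR libraries, by 0.17 (0.03 to 0.31) and 0.42 (0.28 to 0.56), and was the highest gene of the complex. Atp5g1 was below in both (-0.89 and -0.75), and so was Atp5g3, at -0.90 (-1.16 to -0.64) in TR1 and -1.46 (-1.77 to -1.16) in TR9, where it was called lower. Atp5g2 thus made up 44.6% of c subunit counts in control (42.2 to 47.0), 62.7% in TR1 (60.1 to 65.2) and 67.8% in TR9 (65.3 to 70.2). Atp5g3 made up 20.3% (18.4 to 22.3), 13.6% (11.9 to 15.5) and 8.40% (7.01 to 9.96). The shares of Atp5g1 were 35.1%, 23.7% and 23.8%. The summed FPKM of the 3 genes was 469.1, 386.6 and 424.9. Genes that share a stretch of sequence can exchange reads in such counting, although the counts of these 3 genes were whole numbers in every library. The promoters of Atp5g2 (chr15:102671048-102671297) and Atp5g3 (chr2:73911327-73911576), both on the minus strand of GRCm38.p6, are shown side by side because the genes went opposite ways. That of Atp5g2 holds the NRF1 motif in both orientations, overlapping, in capitals, 42 and 40 bases before the start, and that of Atp5g3 holds none of the 3 motifs searched. The promoter of Atp5g1, not printed, holds none either. Sdhb, whose promoter also holds the NRF1 motif, was below control in both TR libraries. Whether the motif goes with the direction of a gene was not tested.
Atp5g2: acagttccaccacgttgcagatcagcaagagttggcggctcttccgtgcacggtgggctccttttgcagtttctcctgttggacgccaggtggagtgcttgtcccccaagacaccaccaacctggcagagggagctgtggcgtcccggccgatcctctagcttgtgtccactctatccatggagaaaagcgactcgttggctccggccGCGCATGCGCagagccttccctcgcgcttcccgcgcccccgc
Atp5g3: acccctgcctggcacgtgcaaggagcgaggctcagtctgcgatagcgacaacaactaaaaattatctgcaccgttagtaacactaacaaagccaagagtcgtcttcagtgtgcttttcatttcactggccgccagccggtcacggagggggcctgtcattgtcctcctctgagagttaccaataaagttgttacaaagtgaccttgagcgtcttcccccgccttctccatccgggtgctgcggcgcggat

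**Figure D4:**
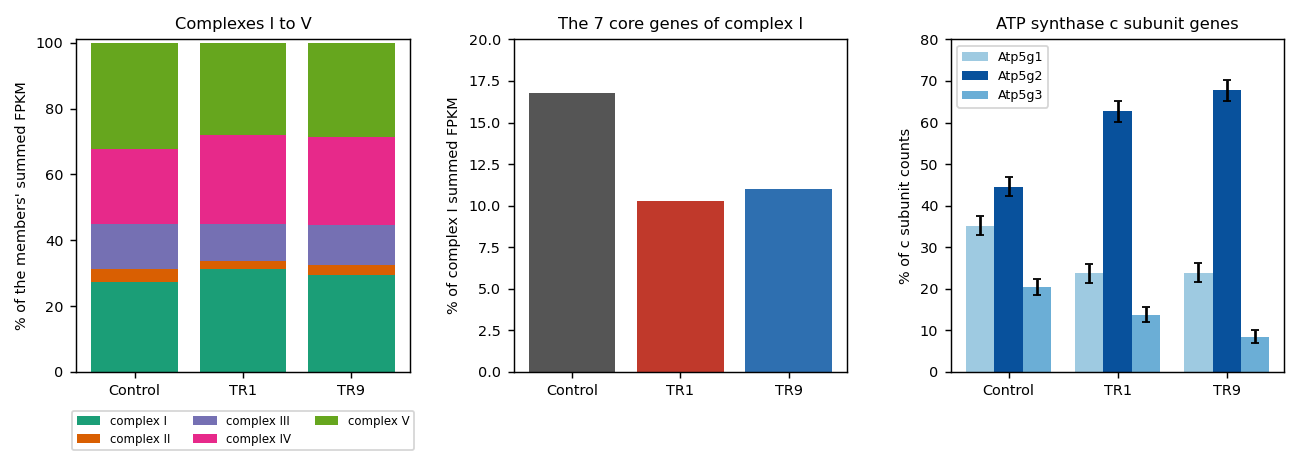
Left, percent of the summed FPKM of all subunit genes held by each complex in the 3 libraries. Middle, percent of the summed FPKM of complex I held by its 7 core genes, from 16.8% in control to 10.3% and 11.0%. Right, percent of c subunit counts from each of the 3 genes, with 95% exact binomial intervals as bars, where Atp5g2 goes from 44.6% to 62.7% and 67.8%.

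Motifs of the regulators best known for respiratory genes were searched in RefSeq promoters (250 bases before to 50 after each start) on both strands. The motifs were GCGCATGC for NRF1, CCGGAAG for GABPA and AAGATGGC for YY1, and a promoter was found for 71 of the 89 genes, as 76 windows. NRF1 was present in 10 of the 76 (13.2%), beside 2.71% of all 32851 windows, GABPA in 17 (22.4%), beside 8.86%, and YY1 in 10 (13.2%), beside 2.75%. At least 1 motif was found for 31 genes and none for 40. Genes with the NRF1 motif had a median log2 ratio of -0.15 for TR1 and -0.13 for TR9, and genes without it -0.42 and -0.31. With and without the GABPA motif the medians were -0.40 and -0.42 in TR1 and -0.32 and -0.30 in TR9, and with and without YY1 they were -0.48 and -0.40, and -0.26 and -0.30. These are descriptions of short windows, and no binding was measured.

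Longer subunit genes had lower ratios. Gene lengths ran from 349 to 2859 bases with a median of 678. In TR1 the 14 subunit genes under 500 bases had a median log2 ratio of -0.07, the 28 of 500 to 700 bases -0.17, the 14 of 700 to 1000 -0.51, the 13 of 1000 to 1500 -0.72 and the 9 of 1500 to 3000 -0.93. In TR9 the medians were -0.24, -0.08, -0.37, -0.50 and -0.64. Other genes of the same lengths went from 0.14 in the shortest class to -0.25 in the longest in TR1, and from 0.18 to -0.17 in TR9. Every class of subunit genes lay below the other genes of its length in both comparisons. Across the 78 subunit genes with a mean FPKM of at least 10, log2 length and log2 ratio had a Pearson r of -0.47 and a Spearman rho of -0.49 in TR1 and -0.36 and -0.40 in TR9, as a description across genes that share the same libraries. Over 3905 other genes of 300 to 3000 bases r was -0.06 and -0.03. Without the 7 core genes of complex I, which are long, r was -0.42 and -0.29 over 71 genes. The 9 accessory genes of complex I with at least 750 bases and over 10 counts had a median ratio of -0.09 for TR1 and -0.08 for TR9. Of these, 4 (44.4%) were lower by 1.5-fold in TR1 (Ndufa10, Ndufa11, Ndufa9 and Ndufab1, named by that threshold) and 1 (Ndufab1) in TR9. Of all genes, 21.0% and 17.4% were. The split at 750 bases and the length classes were chosen with the values known, and the part of length in the order of the complexes and in the gap between core and accessory genes was not tested.

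**Figure D5:**
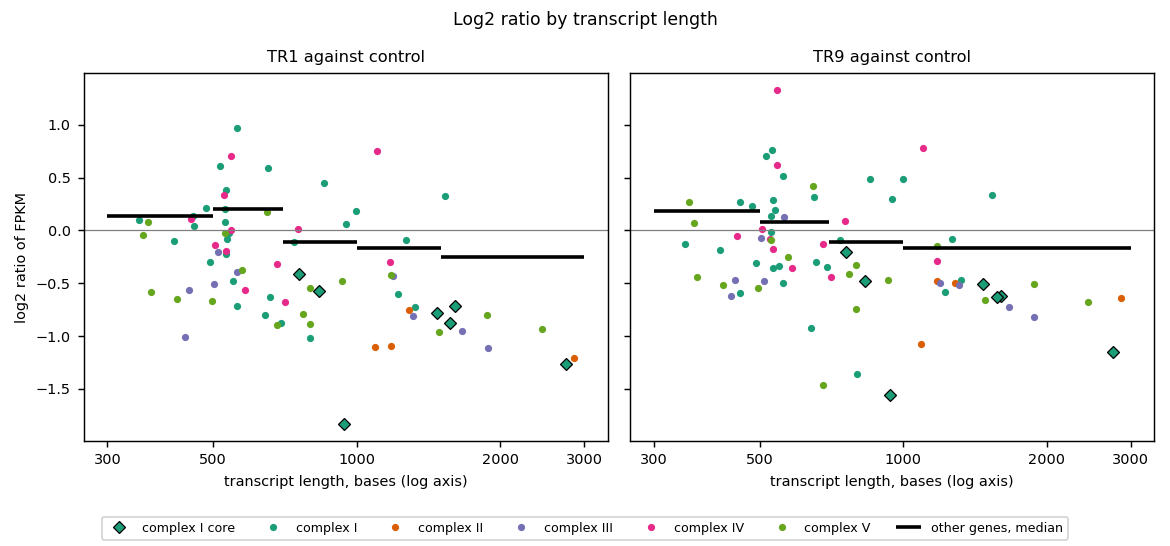
Log2 ratio of FPKM against control by gene length in bases (log axis) for 78 subunit genes, coloured by complex, with the 7 core genes of complex I as diamonds and the median of other genes in each length class as black lines. Short genes scatter around 0 and genes over 1000 bases lie mostly below, at class medians of -0.72 and -0.93 in TR1.

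Between the TR libraries, 0 of 84 subunit genes were called in either direction, beside 2.31% lower and 4.34% higher of 15706 genes tested. The count was also 0 at a false discovery rate of 0.05, and by the edgeR exact test with an assumed dispersion. The ratio of TR9 to TR1 was below 0 in 18 of 84 (21.4%), beside 38.8% of all genes, with a median of 0.14 against 0.13. Under the 3 factors, 35 to 43 of the 84 were below 0 (41.7% to 51.2%, beside 47.0% to 50.8% of all genes), and with the median of ratios factor the median was -0.003. With the deposited scaling the counting interval lay above 0 for 25 genes and below 0 for 4, and the shares of all genes are not given here. Sdha (0.57, 0.44 to 0.69) and Sdhc (0.62, 0.38 to 0.85) stood higher in TR9, beside 0.02 (-0.25 to 0.29) for Sdhb. Uqcrh had 0.53 (0.36 to 0.69), Cox6b2 0.63 (0.36 to 0.90) and Cox8a, named after its value was seen, 0.61 (0.46 to 0.76). Atp5g3 had -0.56 (-0.90 to -0.23). Cox7a2l had 0.03, with an interval (-0.10 to 0.15) that includes 0.

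Genes that serve the chain without being part of it were described from hand-made lists. Of 50 assembly factors, 8 were called lower and 0 higher in TR1 (median -0.31), and of 49 in TR9 4 lower and 1 higher (-0.15). The shares called lower, 16.0% and 8.16%, stand beside 13.0% and 10.8% of all genes, and with TMM 4 and 1 were called lower. Coa5 and Cox11, which serve the assembly of complex IV, and Tmem186, of complex I, were called lower in both. Coa5 had expected counts of 1296, 452 and 584 (-1.55 and -1.05), Cox11 96, 36 and 36 (-1.44 and -1.32), and Tmem186 215, 107 and 100 (-1.03 and -1.01). Of 13 coenzyme Q genes, 5 (38.5%) were called lower in TR1 (median -0.66) and 3 (23.1%) in TR9 (-0.32), and with TMM 2 in each. Pdss1, which helps build its isoprenoid tail, was counted 138, 59 and 52 times, the methyltransferase Coq5 220, 98 and 93 times, and Coq10b 71, 28 and 30 times. Cytochrome c, from Cycs, was at 87.3, 61.2 and 84.7 FPKM (-0.51 and -0.04).

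The 17 TCA cycle and pyruvate dehydrogenase genes, which supply the chain with electrons, were all below control in both comparisons, where 61.6% and 54.4% of all genes were, with medians of -0.68 and -0.48. Under the TMM, median of ratios and upper quartile factors 14 of 17 were below 0 in TR1 and 15 of 17 in TR9. Called lower were 5 (29.4%) in TR1 and 4 (23.5%) in TR9, beside 13.0% and 10.8% of all genes, and with TMM 3 and 2. Pdhx, the E3-binding protein of pyruvate dehydrogenase, was counted 238, 69 and 65 times (-1.81 and -1.78). Idh3a, of the NAD-dependent isocitrate dehydrogenase, was counted 1174, 449 and 483 times (-1.41 and -1.19), fumarase (Fh1) 543, 209 and 238 times (-1.40 and -1.09), and Dlst, of the oxoglutarate dehydrogenase, 1523, 653 and 699 times (-1.25 and -1.03). Of 12 regulators of mitochondrial genes, 1 was called lower and 1 higher in TR1 (median -0.63), and 2 and 2 in TR9 (-0.22). The shares called lower, 8.33% and 16.7%, stand beside 13.0% and 10.8% of all genes. Those called higher, also 8.33% and 16.7%, stand beside 8.09% and 9.37%. Tfam, which packages and transcribes mitochondrial DNA, had expected counts of 250, 118 and 117 (-1.11 in TR1) and was called lower in both. Ppargc1a, a coactivator known for raising respiratory gene expression, was called higher in both at a low level, with expected counts of 4.12, 25.1 and 54.0 and FPKM of 0.11, 0.69 and 1.60. Its ratios were 2.65 (1.15 to 4.67) and 3.86 (2.47 to 5.83). With TMM, Coq5, Coq10b, Dlst, Tfam and Tmem186 were no longer called lower in TR1, nor Coa5, Coq10b, Dlst, Fh1, Tfam and Tmem186 in TR9.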

How the data were processed

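The authors sequenced 1 library per condition, used BWA and Bowtie to map filtered reads, and RSEM for gene levels. Per the labels, mm9 was the build. Tool versions and the annotation are not given in the sources used here. They deposited the expected count of each gene, not normalized, with its length and its FPKM, scaled for that length and the library total.

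Gene IDs were matched to RefSeq symbols (16698 of 16742). A gene that a library does not list was set to 0, and FPKM under 0.01 to 0.01 before ratios. Rounded expected counts were compared by an exact Poisson test, conditional on their sum (scipy 1.17.1), with the thresholds of the study's methods. Its p-values were adjusted by Benjamini-Hochberg over all genes listed in either library. The test was also run on simulated Poisson counts with known changes. Those counts hold no spread between mice, so that run cannot show whether the calls would hold in other mice. Intervals of ratios are Clopper-Pearson, carried to the FPKM scale, with a median half-width of 0.23 to 0.25 on the log2 scale. Of the subunit genes, 77 had at least 50 counts in a library, and exons of 19 overlap another listed gene by at least 50 bases. The TMM and upper quartile factors came from edgeR 4.0.16, and promoters from RefSeq (GRCm38.p6).

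Genes named were those called, the 2 most abundant and the lowest and highest of each complex, isoform families, the core list, and up to 4 genes per pathway list called in both comparisons. The values of 1 subunit gene, which enters the totals and medians, are not reported here, and it was left out of the plots that name genes. Members and lists were chosen with earlier results of these data known.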

Additional observations from a re-analysis of the deposited data

How the results depend on the processing

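Calls in TR1 depended on scaling. The 8 genes called lower became 2 with TMM, 2 by median of ratios, 2 by upper quartile and 20 with TPM, and those called higher went from 0 to 2 with TMM, 1 by median of ratios and 1 by upper quartile. The TR1 median was -0.17 with TMM and -0.18 with the median of ratios, and the median of TR9 against TR1 turned to -0.003 with the latter. The edgeR exact test, given a biological coefficient of variation of 0.2, called 1 gene lower in TR1, and 0 lower and 0 higher in TR9. For these scalings and this test, the shares of all genes called at a log2 ratio of 1 are not given here. With a threshold of 1.5-fold, 29 were lower and 5 higher in TR1, 15 and 5 in TR9, and TR9 exceeded TR1 for 3. With a log2 threshold of 2, 0 were lower in TR1, and 0 lower and 0 higher in TR9. TMM with 1.5-fold, added after seeing the data, gave 15 lower and 7 higher in TR1, 9 and 7 in TR9, and 1 gene (Atp5g3) lower in TR9 than in TR1. The share of counts without the most abundant genes, Atp5a1 and Atp5b among them, was 0.806% in control, 0.672% for TR1 and 0.724% for TR9. The share of summed FPKM was 2.12%, 1.42% and 1.73%. The Audic-Claverie test, other floors, pseudocounts, filters on low values, a false discovery rate of 0.05 and leaving out genes with counts that were not whole kept every count within 1.5 times. For named genes, 133 of the values under an alternative lost a call, 39 gained one and 0 of the called ones changed sign. No paired analysis was possible because each condition has 1 library, and for the same reason no library could be left out in turn. At this depth the ratios of genes with 10 counts or fewer (5 of the subunit genes) cannot be read.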
